A study of Saccharomyces cerevisiae with 42 samples.

Results

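The ATG genes of Saccharomyces cerevisiae encode the core machinery of autophagy and its helpers. The members were the genes whose symbol in the platform annotation is ATG followed by a number, and 36 such genes were found among the 5656 genes tested. They are carried by 39 probe sets. ATG15 has 3 and ATG19 has 2, and for each gene the probe set with the highest mean signal over all arrays was used.

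Autophagy encloses cytoplasm or selected cargo in a double membrane and delivers it to the vacuole, the degradative compartment of yeast. A kinase complex around Atg1 starts the process, vesicles with Atg9 and a phosphatidylinositol 3-kinase build the membrane, and the ubiquitin-like protein Atg8 is joined to lipid on it with the help of the conjugation enzymes. Receptor proteins tie particular cargo to Atg8, and lipases and proteases of the vacuole break down what arrives.

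Biotin-labelled total RNA was measured on 42 single-colour Affymetrix arrays, with 2 arrays at each of 21 combinations of strain and time. Cells grew in YPD, a rich medium with glucose, to log phase and were harvested unheated or at 5, 10, 15, 20, 25 or 30 min of heat at 39 C. The parental strain, named JK939a in the labels, is MAT α with HMLa and the alleles his4, trp1, rme1, ura3-52 and leu2-3 112, and both deletion strains share this background. The DPL1 deletion (dpl1:KanMX) lacks the lyase that cleaves sphingoid base phosphates. The double deletion (lcb4::KanMX and lcb5::KanMX) lacks the kinases that make them. Sphingoid bases are the backbones of sphingolipids, and they accumulate in heated yeast. No age of a culture or number of clones is given, and nothing says that the 2 arrays of a group came from separate cultures, and p-values therefore reflect no more than array-to-array spread, possibly technical.

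Signals are log2 values after the RMA procedure, and array medians lay between 5.61 and 5.80. Within a group the correlation across genes, which are not independent replicates, was 0.942 to 0.980. Each deleted gene was low in its own strain: before heat DPL1 averaged 3.37 in its deletion against 8.83 in the parental strain, LCB4 2.70 in the double deletion against 5.28, and LCB5 3.21 against 5.25. MF(ALPHA)1, the alpha pheromone gene, averaged 12.1 to 12.2 before heat and STE2, a receptor of a cells, 2.73 to 2.84, as the MAT α label states. Replicates 1 and 2 stood apart in control signals. The 18S ribosomal RNA control averaged 13.1 ± 0.15 in replicate 1 and 7.05 ± 2.70 in replicate 2 (SD, n = 21 each), and the 3′ end of the SRB4 control exceeded its 5′ end by 0.52 ± 0.27 and 1.97 ± 0.54. One unannotated probe set, singled out because it separated the strains, read at least 11.8 on the 28 deletion arrays and at most 4.27 on 13 parental arrays. On the parental replicate 1 array before heat it read 8.15. The counts and the median of the parental heat response are therefore also given without that array.

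Most ATG genes were higher under heat in each of the 3 strains. In the parental strain the mean of the 6 heat times was above the level before heat, past an adjusted p of 0.05, for 26 of 36 genes, where 21.8% of all genes were higher. It was lower for ATG10 and ATG27, where 24.5% of all genes were lower. In the DPL1 deletion 22 were higher and ATG27 was lower (20.6% and 26.6% of all genes). In the double deletion 25 were higher and ATG5 was lower (19.1% and 25.2% of all genes). Of the 36 genes, 19 were higher in each of the 3 strains, 7 in 2 and 2 in 1. ATG11, ATG12, ATG16, ATG18 and ATG38 were called in none. Sharing between strains was not counted over all genes, so no share stands beside these counts. All calls come from limma with Benjamini-Hochberg adjustment over all genes. With replicate as a block inside each strain none of them was lost, and 31, 28 and 32 ATG genes were called, where 57.1%, 58.1% and 54.3% of all genes were. The block added ATG18, ATG20 and ATG38 in the parental strain and ATG10, ATG13, ATG14, ATG38 and ATG45 in the DPL1 deletion. In the double deletion it added ATG10, ATG16, ATG18, ATG27, ATG38 and ATG41. ATG10 and ATG27 were added as lower, and the others as higher. The dimmest 25% of genes hold 14 members: ATG4, ATG9, ATG10, ATG11, ATG12, ATG14, ATG16, ATG17, ATG20, ATG23, ATG29, ATG31, ATG36 and ATG40. Without the block, 9 of these were higher in the parental strain, 7 in the DPL1 deletion and 9 in the double deletion. The arrays are scaled to a common distribution, so values are relative to the RNA on the array, and fewer cells with a transcript and less of it per cell cannot be told apart.

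Control signals moved with heat as well. The 25S ribosomal RNA control averaged 9.78 before and 11.8 under heat in the parental strain, 9.17 and 12.7 in the DPL1 deletion, and 9.80 and 10.7 in the double deletion. The SRB4 3′ minus 5′ difference averaged 0.817 before and 1.29 under heat in the parental strain, 0.843 and 1.01 in the DPL1 deletion, and 1.24 and 1.56 in the double deletion. For both controls the arrays before heat, 2 a strain, lay far apart. Their part in the heat response was not tested.

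The median response of the 36 genes was 1.00 (log2) in the parental strain, 0.775 in the DPL1 deletion and 0.786 in the double deletion, against -0.016, -0.055 and -0.023 over all genes. All 12 heated arrays lay above both arrays before heat for 22, 19 and 18 ATG genes in these strains, where 15.5%, 16% and 13.2% of all genes did so. They lay below both for 0, 1 and 1 (15.8%, 21.7% and 18.7% of all genes), and the gene was ATG27 in both deletions. A joint F test of the 6 times called 23, 18 and 20 ATG genes (38.8%, 38.6% and 39% of all genes). Without the parental replicate 1 array before heat, 20 genes were higher in that strain, none was lower, the joint test called 14 and the median was 0.78. Without the double deletion's replicate 1 array before heat, 15 genes were higher in that strain and the joint test called 12. With the arrays centred on the bacterial hybridisation controls, the higher counts were 13, 13 and 9 and the lower counts 0, 0 and 0, with 9.88%, 9.46% and 7.2% of all genes higher. Of these higher genes 13, 13 and 8 were also called without that centring, from 26, 22 and 25. In the double deletion the calls kept were ATG2, ATG7, ATG8, ATG19, ATG33, ATG34, ATG39 and ATG42. No called value changed its sign under that scaling, and the all-gene medians moved to 0.258, 0.158 and 0.223.

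**Figure D1:**
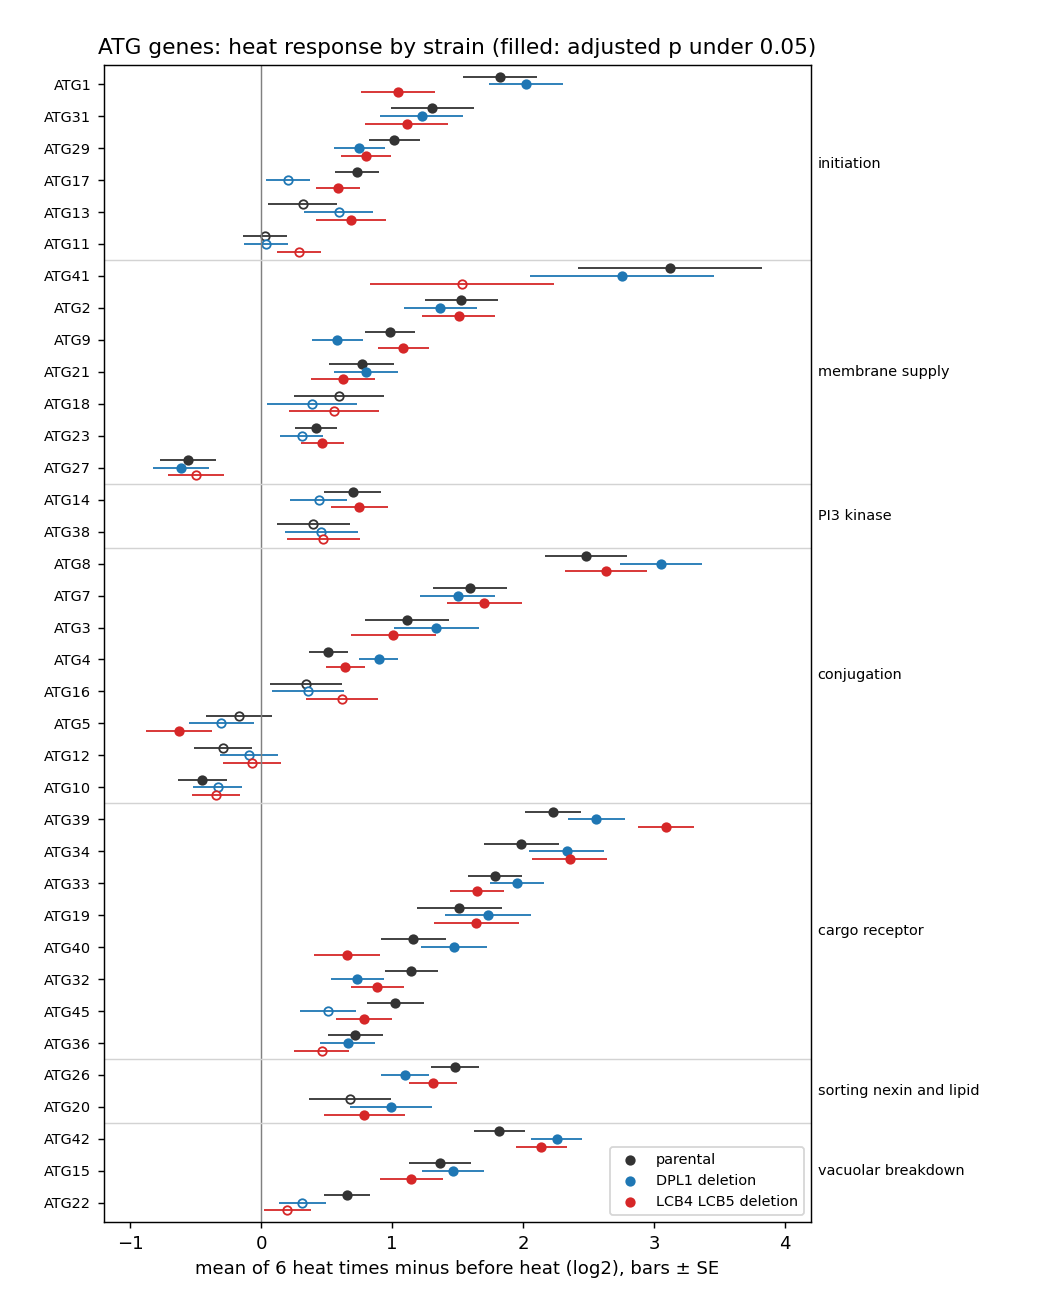
Mean of the 6 heat times minus the level before heat (log2, x axis) for the 36 ATG genes grouped by role, with bars of ± 1 SE and filled points at an adjusted p under 0.05. All points of the cargo receptor group, which includes ATG33, and of the initiation group lie to the right of 0 in the 3 strains. ATG27, ATG10, ATG12 and ATG5 lie to the left.

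In the initiation group, 4 of 6 genes were higher in the parental strain, 3 in the DPL1 deletion and 5 in the double deletion, and none was lower. ATG1, the protein kinase that starts autophagosome formation, read 3.49 and 3.98 in the parental strain before heat. Its arrays read 4.94 and 5.13 at 5 min, 5.64 and 5.63 at 10 min, 5.58 and 4.82 at 15 min, 5.62 and 5.97 at 20 min, 5.36 and 5.76 at 25 min, and 6.0 and 6.22 at 30 min. Every heated array was above both arrays before heat, and the mean rise was 1.82 ± 0.28 (log2 ± SE, adjusted p = 7.15e-06 by limma). ATG1 in the DPL1 deletion read 3.86 and 3.45 before heat, then 4.98 and 4.71, 5.19 and 5.43, 5.75 and 6.06, 6.09 and 6.01, 6.03 and 5.76, and 5.88 and 6.20 at the successive times, a rise of 2.02 ± 0.28. In the double deletion it read 4.21 and 4.27 before heat, then 5.24 and 4.96, 5.62 and 4.53, 5.66 and 4.99, 6.12 and 4.82, 6.01 and 5.12, and 5.40 and 4.98. The replicate 1 array was the higher of each heated pair there, and the rise of 1.05 ± 0.28 was 1.46 in replicate 1 and 0.628 in replicate 2 alone.

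ATG31 and ATG29, subunits of the Atg17 scaffold complex, rose by 1.31 ± 0.32 and 1.02 ± 0.19 in the parental strain. Both were also called higher in each deletion, ATG31 at 1.23 and 1.11 and ATG29 at 0.75 and 0.80 in the DPL1 and double deletions. ATG17, the scaffold of the starvation-induced complex, read 2.87 and 3.01 in the parental strain before heat and 2.98 to 4.16 (median 3.70) on the heated arrays. It rose by 0.73 ± 0.17 there and by 0.58 in the double deletion, and its value in the DPL1 deletion was 0.20 (adjusted p = 0.338 by limma). ATG13, a regulatory subunit of the Atg1 complex and a target of the TORC1 kinase, was called in the double deletion, at 0.68 ± 0.26, with 0.32 and 0.59 in the parental and DPL1 deletion strains. These differences between strains did not pass the test of the difference. ATG11, the scaffold of selective autophagy, had values of 0.03, 0.04 and 0.29 in the parental, DPL1 deletion and double deletion strains, and none passed the test.

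Responses spread most widely in the membrane supply group, from -0.56 to 3.12 in the parental strain. In the parental strain 5 of 7 genes were higher and 1 was lower, against 4 and 1 in the DPL1 deletion and 4 and 0 in the double deletion. ATG41, a protein of autophagosome formation, read 6.05 and 6.09 in the parental strain before heat. It then read 10.16 and 10.50 at 5 min, 9.84 and 10.81 at 10 min, 9.47 and 8.86 at 15 min, 8.0 and 10.26 at 20 min, 7.94 and 8.73 at 25 min, and 7.33 and 8.46 at 30 min. The pairs at 5 and 10 min were the highest on average, but the replicate 2 array at 20 min exceeded the replicate 1 arrays at both of these times. All 12 heated arrays were above both before heat. The difference was 4.26 ± 0.92 at 5 min (adjusted p = 0.00198 by limma) and 1.82 ± 0.92 at 30 min (adjusted p = 0.127), with a mean rise of 3.12 ± 0.70. This was the largest mean rise of an ATG gene in the parental strain.

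ATG2, a lipid transfer protein at the growing membrane, read 5.31 and 5.83 in the parental strain before heat and 6.46 to 7.82 (median 7.11) under heat. The heated arrays did not overlap those before heat, and the rise was 1.53 ± 0.28, with 1.37 and 1.51 in the DPL1 and double deletions. ATG9, the transmembrane protein of the vesicles that seed the membrane, read 3.46 and 3.90 before heat and 4.17 to 5.13 (median 4.74) under heat in the parental strain, a rise of 0.98 ± 0.19. Its rise was 0.58 in the DPL1 deletion, where 3.80 on the lowest heated array lay below both arrays before heat, 4.16 and 3.86, and 1.09 in the double deletion. ATG21, a phosphoinositide-binding propeller protein, rose by 0.77, 0.80 and 0.63 in the parental, DPL1 deletion and double deletion strains. ATG23, a peripheral membrane protein of Atg9 transport, rose by 0.42 and 0.47 in the parental and double deletion strains, and had a value of 0.31 in the DPL1 deletion. ATG18, the propeller protein that works with Atg2, had values of 0.59, 0.39 and 0.56, none of them called.

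ATG27, a membrane protein of Atg9 transport, went the other way. It read 6.80 and 7.08 in the parental strain before heat and 5.71 to 6.89 (median 6.49) under heat. It read 6.84 and 7.25 before heat and 5.91 to 6.71 under heat in the DPL1 deletion, and 6.90 and 6.98 before heat and 6.03 to 6.83 in the double deletion. Only in the parental strain did a heated array lie above the lower array before heat. The mean changes were -0.56 ± 0.21 (adjusted p = 0.033 by limma), -0.61 (0.0205) and -0.50 (0.0614). The parental call was lost without the replicate 1 array before heat. The lowest parental pair was at 15 min, where the difference was -1.08 ± 0.28.

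**Figure D2:**
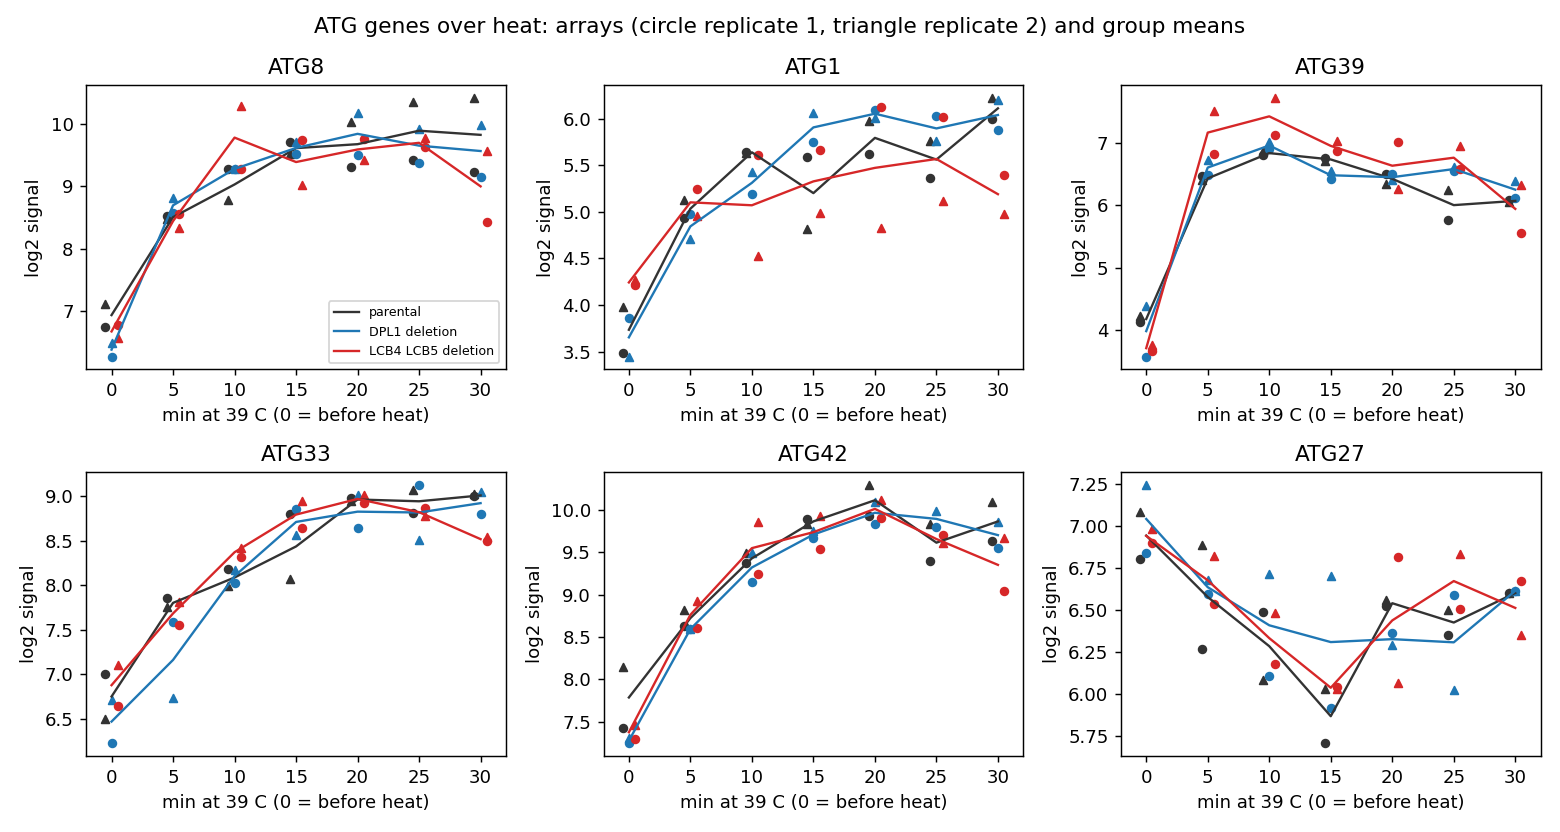
Signal of 6 ATG genes (log2, y axis) against minutes at 39 C (x axis) on each array, with circles for replicate 1, triangles for replicate 2 and lines through the group means. The group means of ATG8, ATG1, ATG33 and ATG42 are above their level before heat at each heated time, ATG39 is highest at 10 min in each strain, and ATG27 is lower under heat.

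Of the PI3-kinase members, ATG14, the subunit that directs the kinase to autophagy, read 2.82 and 3.52 in the parental strain before heat and 3.34 to 4.48 (median 3.84) under heat. It rose by 0.70 ± 0.22 there and by 0.75 in the double deletion, and had a value of 0.44 in the DPL1 deletion (adjusted p = 0.1 by limma). The heated range overlapped the arrays before heat in the parental strain. ATG38, another subunit of the autophagy-specific complex, read 6.16 and 5.99 before heat and 6.12 to 7.01 (median 6.44) under heat in the parental strain. Its values of 0.40, 0.46 and 0.47 in the 3 strains were not called. VPS30, the shared subunit also known as ATG6, carries a symbol outside the ATG names and is given with the partner genes.

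In the conjugation group, the Atg8 branch and the Atg12 branch differed in their calls. ATG8, ATG7, ATG3 and ATG4 were higher in each of the 3 strains. ATG10, ATG12, ATG5 and ATG16, which make and hold the conjugate of Atg12 with Atg5, were higher in none without the block, and with it ATG16 was higher in the double deletion. ATG7, which activates both Atg8 and Atg12, is counted in the first set. ATG10, ATG12 and ATG16 are among the dimmest 25% of genes, as is ATG4 of the first set, while ATG5, ATG8, ATG7 and ATG3 are not. In the double deletion every heated array of ATG16 lay above both arrays before heat, at 0.61 (adjusted p = 0.0723 by limma). No test of the difference between the branches was made, and whether dim signal limited the calls was not tested.

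ATG8, the ubiquitin-like protein that is joined to lipid, read 6.75 and 7.12 in the parental strain before heat. It then read 8.53 and 8.48 at 5 min, 9.27 and 8.78 at 10 min, 9.70 and 9.51 at 15 min, 9.31 and 10.03 at 20 min, 9.42 and 10.35 at 25 min, and 9.23 and 10.41 at 30 min. It was already above both arrays before heat at 5 min, by 1.57 ± 0.41, and it remained high to 30 min. The mean rise was 2.48 ± 0.31, or 5.58-fold (adjusted p = 4.41e-07 by limma), with 2.49 in replicate 1 and 2.47 in replicate 2 alone.

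ATG8 in the DPL1 deletion read 6.27 and 6.50 before heat, then 8.57 and 8.81, 9.28 and 9.27, 9.52 and 9.70, 9.50 and 10.17, 9.37 and 9.92, and 9.14 and 9.98. Its double deletion arrays read 6.78 and 6.58, then 8.55 and 8.33, 9.27 and 10.28, 9.74 and 9.02, 9.75 and 9.42, 9.62 and 9.76, and 8.43 and 9.56. The heated arrays were above those before heat in both strains. The rises were 3.05 ± 0.31 (8.29-fold) and 2.64 ± 0.31 (6.22-fold).

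ATG7, the E1-like enzyme that activates Atg8 and Atg12, read 4.99 and 5.15 before heat and 5.74 to 7.33 (median 6.64) under heat in the parental strain, and rose by 1.59 ± 0.28. Its rises in the DPL1 and double deletions were 1.5 and 1.70. ATG3, the E2-like enzyme that joins Atg8 to lipid, rose by 1.11, 1.34 and 1.01, and ATG4, the protease that trims Atg8 and frees it from lipid, by 0.51, 0.90 and 0.64. ATG10, the E2-like enzyme of the Atg12 branch, read 5.20 and 4.59 before heat and 4.05 to 5.09 under heat in the parental strain. Its change of -0.45 ± 0.19 had an adjusted p of 0.0495 by limma, and the call was lost without the parental replicate 1 array before heat. Its values in the deletions were -0.33 and -0.35. ATG5, the protein to which Atg12 is joined, was called in the double deletion at -0.63 ± 0.25 (adjusted p = 0.0438 by limma), with -0.17 and -0.30 in the parental and DPL1 deletion strains. In the double deletion it read 5.78 and 6.23 before heat and 4.69 to 5.85 under heat, so the arrays overlapped. The joint F test did not call it there (adjusted p = 0.228), and the call was lost with median centring. ATG12 had values of -0.29, -0.09 and -0.07, and ATG16, which holds the conjugate at the membrane, 0.34, 0.36 and 0.61, none of them called.

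Of the 8 genes grouped as cargo receptors, 8 were higher in the parental strain and 7 in each deletion. The group also holds ATG33, a mitochondrial membrane protein that is not itself an established receptor. ATG39, a receptor of nuclear envelope autophagy, read 4.14 and 4.23 in the parental strain before heat. It then read 6.46 and 6.40 at 5 min, 6.80 and 6.87 at 10 min, 6.76 and 6.70 at 15 min, 6.50 and 6.34 at 20 min, 5.76 and 6.24 at 25 min, and 6.09 and 6.05 at 30 min. Pairs of arrays lay close together, no heated array overlapped those before heat, and the rise was 2.23 ± 0.22 (adjusted p = 5.78e-09 by limma). The pair was highest at 10 min, with a difference of 2.65 ± 0.28, against 1.89 at 30 min.

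The DPL1 deletion arrays of ATG39 read 3.58 and 4.40 before heat, then 6.48 and 6.72, 6.90 and 7.01, 6.42 and 6.54, 6.50 and 6.40, 6.55 and 6.61, and 6.12 and 6.38, a rise of 2.56. Those of the double deletion read 3.67 and 3.76, then 6.81 and 7.51, 7.12 and 7.71, 6.87 and 7.03, 7.01 and 6.25, 6.57 and 6.94, and 5.55 and 6.33, a rise of 3.09. The heated arrays did not overlap those before heat in either deletion.

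ATG33, a mitochondrial outer membrane protein of mitophagy, the removal of mitochondria, read 7.00 and 6.50 in the parental strain before heat. It then read 7.85 and 7.75, 8.18 and 8.0, 8.80 and 8.07, 8.98 and 8.95, 8.81 and 9.07, and 9.0 and 9.02 at the 6 times, a rise of 1.79 ± 0.21. The DPL1 deletion read 6.23 and 6.71 before heat, then 7.59 and 6.74, 8.03 and 8.18, 8.85 and 8.57, 8.64 and 9.01, 9.13 and 8.50, and 8.80 and 9.04, a rise of 1.95. The replicate 2 array at 5 min, 6.74, barely cleared the 6.71 before heat. ATG33 in the double deletion read 6.65 and 7.11, then 7.56 and 7.81, 8.32 and 8.42, 8.64 and 8.95, 8.93 and 9.01, 8.86 and 8.78, and 8.50 and 8.54, a rise of 1.65.

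ATG34, a receptor that carries alpha-mannosidase, rose by 1.99 ± 0.29, 2.33 and 2.36 in the parental, DPL1 deletion and double deletion strains. ATG19, the related receptor of the cytoplasm-to-vacuole pathway, rose by 1.51, 1.73 and 1.64 on the probe set used. A second, dimmer ATG19 probe set (mean signal 3.65) had values of -0.01, 0.32 and 0.20, so the ATG19 rise rests on 1 of its 2 probe sets. ATG32, the mitophagy receptor, rose by 1.15, 0.73 and 0.89. ATG40, a receptor of endoplasmic reticulum autophagy, rose by 1.16, 1.47 and 0.66. ATG45, a receptor of glycogen autophagy, rose by 1.02 and 0.78 in the parental and double deletion strains, with 0.51 in the DPL1 deletion (adjusted p = 0.0539 by limma). ATG36, the receptor for peroxisomes, rose by 0.72 and 0.66 in the parental and DPL1 deletion strains, with 0.46 in the double deletion (adjusted p = 0.0762 by limma).

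ATG26, a sterol glucosyltransferase, read 5.99 and 5.93 in the parental strain before heat and 6.99 to 7.95 (median 7.37) under heat. Its arrays did not overlap, and the rises were 1.48 ± 0.18, 1.10 and 1.31 in the 3 strains. ATG20, a sorting nexin of selective autophagy, read 3.77 and 4.57 before heat and 4.32 to 5.52 (median 4.87) under heat in the parental strain. Its heated arrays overlapped those before heat there, with a value of 0.68 ± 0.31 (adjusted p = 0.0786 by limma), and it rose by 0.99 and 0.79 in the DPL1 and double deletions.

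All 3 genes of vacuolar breakdown were higher in the parental strain, and 2 in each deletion. ATG42, a vacuolar carboxypeptidase, read 7.42 and 8.15 before heat and 8.63 to 10.30 (median 9.73) under heat in the parental strain, 7.24 and 7.30 against 8.59 to 10.10 in the DPL1 deletion, and 7.29 and 7.45 against 8.60 to 10.12 in the double deletion. The arrays did not overlap in any strain, and the rises were 1.82 ± 0.20, 2.26 and 2.14. ATG15, the lipase that breaks the autophagic body, read 6.04 and 5.97 before heat and 6.64 to 8.13 (median 7.36) under heat in the parental strain, a rise of 1.36 ± 0.24, with 1.46 and 1.15 in the deletions. All 3 of its probe sets had positive values in each strain, from 0.91 to 1.70. ATG22, a permease that exports amino acids from the vacuole, was called in the parental strain at 0.66 ± 0.18, with 0.31 and 0.20 in the deletions. At 30 min alone it was called higher in both deletions, by 0.72 ± 0.23 (adjusted p = 0.016 by limma) and 0.77 ± 0.23 (0.0159), and the joint test called it in the double deletion (adjusted p = 0.00659).

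In the parental strain 14 ATG genes were higher at 5 min, where 6.93% of all genes were, and 21, 22, 25, 21 and 23 at the 5 later times (14.7%, 19.9%, 20.5%, 17.3% and 18.5% of all genes). The DPL1 deletion had 10 at 5 min (6.77%) and 21, 21, 21, 17 and 20 later (15.4%, 18.2%, 19.8%, 18.3% and 17.1%). The double deletion had 11 at 5 min (7.21%) and 17, 22, 22, 20 and 18 later (15%, 16.8%, 18.6%, 16.2% and 12.5%). ATG7, ATG8, ATG26, ATG34, ATG39, ATG41 and ATG42 were called higher at 5 min in each strain. Of the genes called at 5 min, 12 of 14, 9 of 10 and 9 of 11 were also called at 30 min in the parental, DPL1 deletion and double deletion strains. The exceptions were ATG41 in each strain and ATG14 in the parental strain and the double deletion. Calls shared by the strains at 5 min, or kept from 5 to 30 min, were not counted over all genes. No ATG gene was called lower at 5, 10 or 30 min by limma, with 0 at an unadjusted p under 0.05 at 5 min in each strain, 2, 1 and 1 at 10 min and 1, 1 and 0 at 30 min in the parental, DPL1 deletion and double deletion strains. The shares of all genes that were lower, in the same order of strains, were 7.23%, 8.06% and 9.03% at the first of these times, 18.8%, 19.9% and 23.7% at the second, and 17.8%, 20.7% and 13.5% at the last. At the times between, lower calls were few. ATG10 and ATG27 were lower at 15 min in the parental strain (22.6% of all genes), ATG27 at 15, 20 and 25 min in the DPL1 deletion (22.3%, 24.7% and 23.7%), ATG5 and ATG27 at 15 min in the double deletion (22.9%), and ATG10 at 25 min in it (19.1%).

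**Figure D3:**
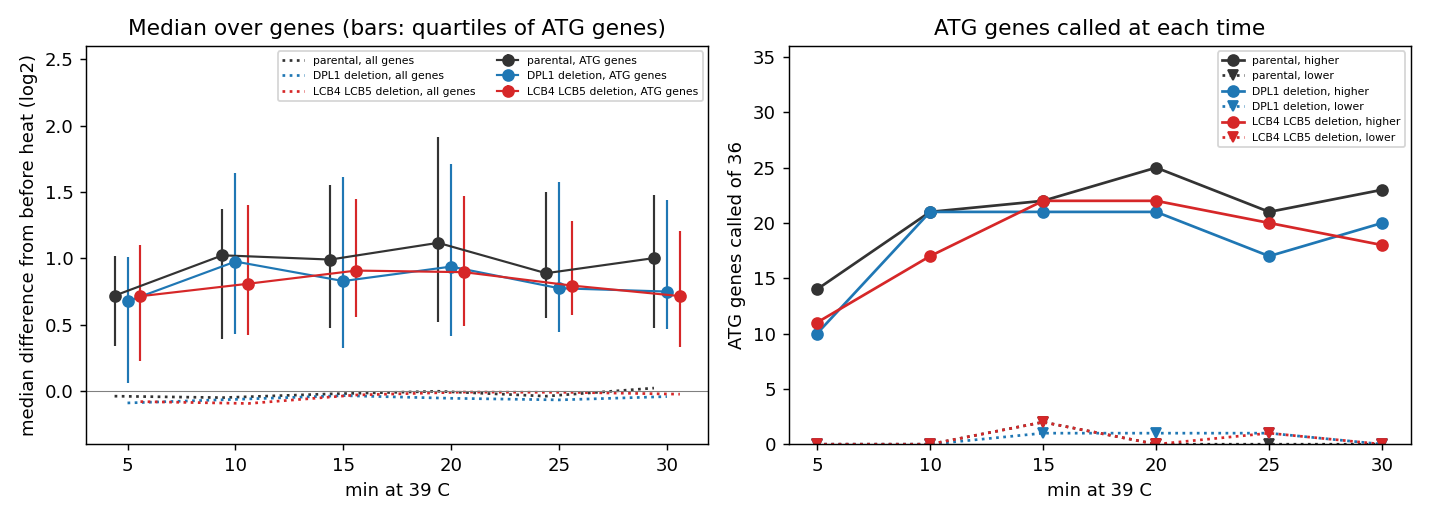
Left, median difference from the level before heat (log2) of the 36 ATG genes, with bars from the lower to the upper quartile, and of all genes (dotted), against minutes at 39 C. Right, number of ATG genes called higher or lower at each time; the higher counts go from 10 to 14 at 5 min to 18 to 23 at 30 min.

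The time of the largest difference varied among genes. Of the 26 genes called higher in the parental strain, 2 had it at 5 min, 3 at 10, 1 at 15, 11 at 20, 5 at 25 and 4 at 30. ATG41 was among the early genes and ATG8 and ATG1 among the late ones, with ATG8 at 2.95 at 25 min. The median ATG difference in this strain was 0.72 at 5 min, 1.12 at 20 min and then 1.00 at 30 min. In the DPL1 deletion it was 0.68, 0.94 and 0.75, and in the double deletion 0.72, 0.90 and 0.72.

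The strain comparison asked whether loss of the lyase or of the kinases changed ATG transcript levels or their response to heat. Averaged over the 7 times, no ATG gene differed between the DPL1 deletion and the parental strain by limma, with 2 at an unadjusted p under 0.05 (0% of all genes called higher and 0.0177% lower). Differences ran from -0.39 for ATG41 to 0.13 for ATG45, and the 95% interval lay within 1 log2 unit for 35 of 36 genes. Between the double deletion and the parental strain, ATG11 was higher and ATG29 and ATG41 were lower, where 12.7% of all genes were higher and 6.77% lower. Between the DPL1 deletion and the double deletion, ATG41 was higher and ATG11 lower in the DPL1 deletion (4.07% and 8.75% of all genes). Every pair of these comparisons shares the arrays of 1 strain.

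**Figure D4:**
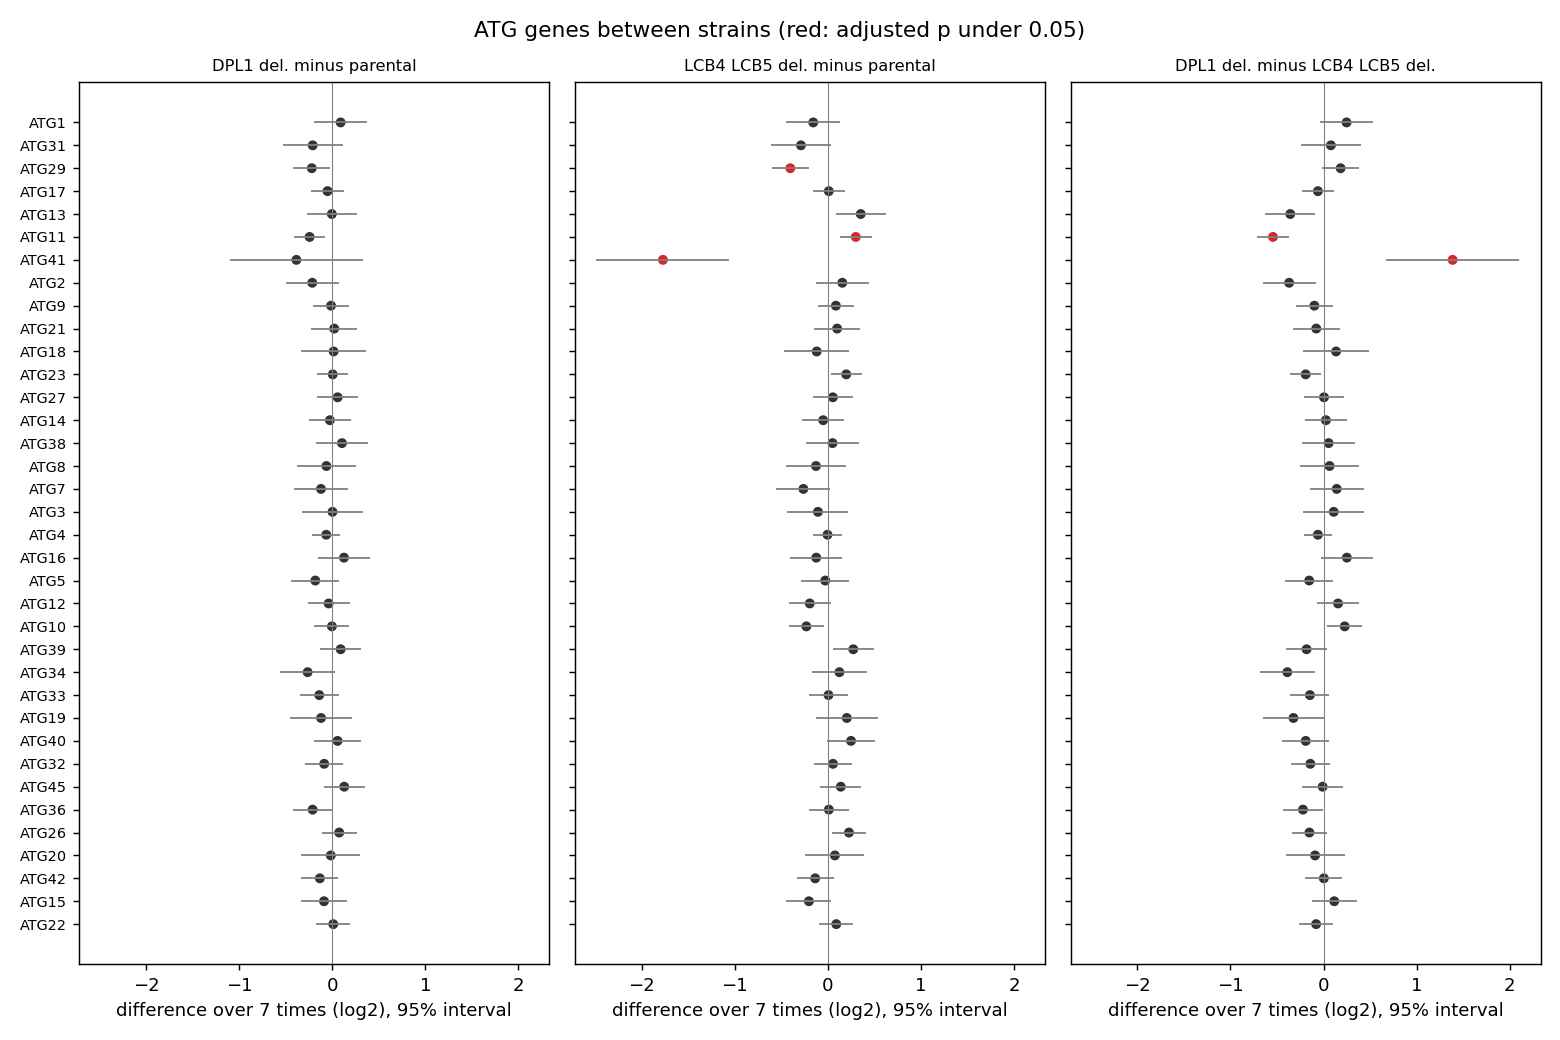
Difference between strains averaged over the 7 times (log2, x axis) with its 95% interval for each ATG gene, in 3 panels with 1 scale, and red points at an adjusted p under 0.05. ATG41 stands at -1.77 and 1.39 in the comparisons with the double deletion, and most other genes lie within 0.5 of 0.

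ATG41 gave the largest strain difference. In the DPL1 deletion it read 6.02 and 5.99 before heat, then 9.36 and 10.27, 9.98 and 11.03, 7.41 and 10.36, 7.44 and 9.44, 6.96 and 8.23, and 7.07 and 7.54. The double deletion read 5.73 and 5.60 before heat, 9.88 and 9.92 at 5 min, 9.04 and 5.52 at 10 min, 7.36 and 6.55 at 15 min, 6.87 and 5.31 at 20 min, 6.86 and 6.18 at 25 min, and 7.00 and 5.87 at 30 min. At 5 min all 3 strains were high. From 10 min the replicate 2 arrays of the double deletion were at 5.31 to 6.55, near their level before heat, while its replicate 1 arrays were at 6.86 to 9.04.

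Over all times ATG41 was at -1.77 ± 0.35 in the double deletion against the parental strain (adjusted p = 0.00119 by limma). The DPL1 deletion against the double deletion was at 1.39 ± 0.35 (adjusted p = 0.0103). Within replicate 1 these differences were -0.865 and 0.214, and within replicate 2 they were -2.68 and 2.56. Both came more from replicate 2 than from replicate 1, and the second one almost wholly. The ATG41 response to heat averaged 1.53 ± 0.70 in the double deletion (adjusted p = 0.0793), with a joint test over the 6 times at an adjusted p of 0.00966. Its response differed from the parental one by -1.59, which did not pass the test of the difference.

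ATG11 read 5.11 and 5.16 in the parental strain before heat, then 5.04 and 4.71, 4.94 and 5.16, 5.01 and 5.28, 4.91 and 5.29, 5.43 and 5.39, and 5.57 and 5.29. The DPL1 deletion arrays read 4.58 and 5.20, then 4.69 and 4.62, 4.83 and 4.88, 4.91 and 5.08, 4.86 and 4.99, 4.93 and 5.17, and 5.19 and 4.96. In the double deletion it read 5.28 and 5.15, then 5.10 and 5.64, 5.30 and 5.58, 5.26 and 5.39, 5.39 and 5.83, 5.52 and 5.74, and 5.72 and 5.58. Pooled over the whole course, the ranges of the strains overlapped, and before heat the double deletion arrays overlapped those of each other strain. At each heated time both double deletion arrays lay above both DPL1 deletion arrays. The double deletion arrays also lay above both parental arrays at each heated time except 15 min. The double deletion was above the parental strain by 0.30 ± 0.08 (adjusted p = 0.0133 by limma), with 0.223 and 0.376 within replicates 1 and 2. The DPL1 deletion was below the double deletion, at -0.54 ± 0.08 (adjusted p = 0.000119), with -0.513 and -0.573.

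ATG29 read 2.33 and 2.66 in the parental strain before heat, then 3.18 and 3.51, 3.37 and 3.92, 3.32 and 3.46, 3.67 and 4.41, 3.05 and 3.48, and 3.09 and 3.67. The DPL1 deletion arrays read 2.33 and 2.68, then 2.87 and 2.96, 3.2 and 3.68, 3.12 and 3.66, 3.29 and 3.42, 3.09 and 3.26, and 3.29 and 3.21. In the double deletion it read 2.18 and 2.37, then 2.86 and 2.75, 3.06 and 2.94, 3.05 and 3.32, 3.41 and 3.51, 2.98 and 3.06, and 2.95 and 3.04. The parental replicate 2 arrays were the highest at each heated time except 15 min. The difference of the double deletion from the parental strain was -0.40 ± 0.10 (adjusted p = 0.005 by limma), with -0.22 and -0.589 within replicates 1 and 2. ATG11 and ATG29 are both among the dimmest 25% of genes.

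**Figure D5:**
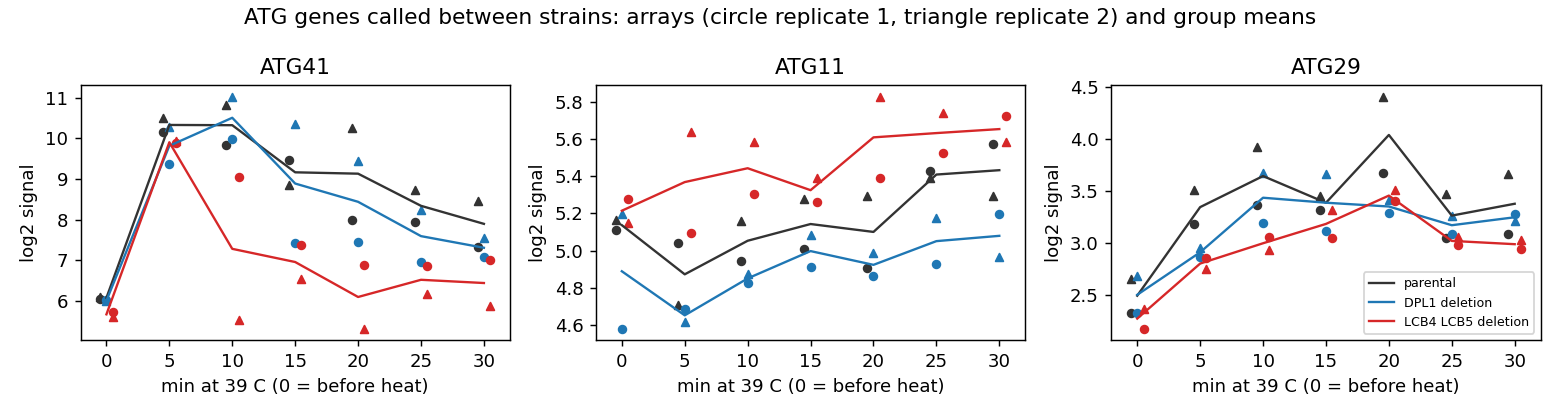
Signal (log2, y axis) of the 3 ATG genes called between strains against minutes at 39 C (x axis), with circles for replicate 1, triangles for replicate 2 and lines through the group means. The group mean of the double deletion falls below the other strains after 5 min for ATG41, lies above them for ATG11 and below the parental strain for ATG29. For ATG41 its gap to the DPL1 deletion after 5 min is smaller in replicate 1 than in replicate 2 at each time.

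Control signals also differed between strains. The SRB4 3′ minus 5′ difference averaged 1.22 in the parental strain, 0.99 in the DPL1 deletion and 1.51 in the double deletion, and the 25S ribosomal RNA control 11.5, 12.2 and 10.5. Their part in the ATG11, ATG29 and ATG41 differences was not tested. With centring on the hybridisation controls the ATG11 and ATG29 calls were lost, at an adjusted p of 1, 0.584 and 0.731 for the 3 calls, and the ATG41 calls were kept. When replicate was fitted as a block inside each strain, 9 ATG genes differed between the double deletion and the parental strain and 9 between the 2 deletions, where 33.9% and 28.3% of all genes were called. That block takes the gap between replicates within a strain out of the spread, so p-values of its added calls do not reflect that gap and may be too small. Leaving out the double deletion's replicate 1 array at 5 min, without the block, gave 6 and 5 genes. The genes added by the block against the parental strain were ATG10, ATG13, ATG26, ATG31, ATG39 and ATG40, and between the deletions ATG2, ATG10, ATG13, ATG16, ATG19, ATG29 and ATG34.

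Before heat no ATG gene differed between strains by limma, with 0, 2 and 1 at an unadjusted p under 0.05 for the DPL1 deletion against the parental strain, the double deletion against it, and the DPL1 deletion against the double deletion. Between 0% and 0.106% of all genes were called in a direction. The 95% interval of the difference before heat lay within 1 log2 unit for 27, 27 and 24 of the 36 genes in the same comparisons. A larger difference was not bounded for the others. The lowest unadjusted p was that of ATG40, which averaged 4.29 in the double deletion and 3.40 in the DPL1 deletion before heat. The mean heat response differed for no ATG gene by limma either, with 1, 1 and 2 genes at an unadjusted p under 0.05 in the same comparisons (0% to 0.0177% of all genes called). These were ATG17 in the first, at -0.53 ± 0.24, ATG39 in the second, at 0.86 ± 0.30, and ATG1 and ATG40 in the third, at 0.98 ± 0.40 and 0.82 ± 0.35. The joint test of a response difference called no ATG gene by limma in any pair, with 1, 1 and 0 at an unadjusted p under 0.05 (0%, 0.0177% and 0.0354% of all genes called). The 95% interval of the response difference lay within 1 log2 unit for 21, 22 and 21 of the 36 genes, so a larger difference was not bounded for the others.

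A set of 41 partner genes of the pathway that carry other names was read beside the ATG genes. In the parental strain 13 of them were higher and 1 was lower, against 13 and 3 in the DPL1 deletion, and 12 and 1 in the double deletion. Of all genes, 21.8%, 20.6% and 19.1% were higher in these strains and 24.5%, 26.6% and 25.2% lower. APE1, the aminopeptidase carried by the Atg19 receptor, rose by 2.52 ± 0.30, 2.87 and 2.28 in the 3 strains, and AMS1, alpha-mannosidase, by 3.10 ± 0.37, 3.08 and 2.56. APE4, another aminopeptidase, rose by 0.68 and 0.64 in the parental and DPL1 deletion strains, with 0.47 in the double deletion (adjusted p = 0.0984 by limma).

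Of 5 vacuolar protease genes, 4, 5 and 4 were higher in the parental, DPL1 deletion and double deletion strains. PRB1, proteinase B, rose by 2.20, 2.56 and 1.74, its inhibitor PBI2 by 2.39, 2.81 and 1.98, and PRC1, carboxypeptidase Y, by 1.31, 1.27 and 0.99. Of the 4 PI3-kinase partners, 2, 1 and 2 were higher. VPS30 rose by 0.79, 0.71 and 0.74, and VPS34, the catalytic subunit, by 0.58 and 0.69 in the parental and double deletion strains, with 0.52 in the DPL1 deletion. VPS38, which directs the kinase to endosomes, had values of 0.29, -0.08 and 0.47, none of them called.

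Vacuole fusion genes were mostly not called, with 1 of 10 higher in each strain. That gene was VTI1, a SNARE, at 1.14, 1.09 and 1.14. VAM3, the vacuolar SNARE, was lower in the DPL1 deletion at -0.49, with -0.40 and -0.26 in the parental and double deletion strains, and YKT6, another SNARE, had values of -0.27, -0.19 and -0.20. Among 5 trafficking genes SNX4, the sorting nexin also known as ATG24, rose by 1.02, 1.21 and 1.13, while HSV2 was at 0.71, 0.42 and 0.71 and TRS85 at 0.33, -0.14 and -0.13, none of these called. Of 14 regulators, 2 were higher in each strain. RIM15, a kinase that promotes entry into quiescence, rose by 0.61, 0.90 and 0.79, and TAP42, a regulator of phosphatases downstream of TORC1, rose by 0.55 and 0.42 in the parental and DPL1 deletion strains, with 0.26 in the double deletion. GCN4, the activator of amino acid synthesis genes, fell by 0.75, 0.73 and 0.68 on the log2 scale.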

How the data were processed

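RNA of 42 samples was read on Affymetrix arrays. The values used are log2 signals that the authors deposited after RMA, per the submitters' processing notes; its version: not given in the sources used here. The log base was inferred from the range of 1.36 to 14.7. Background correction and normalisation were therefore not varied from scanner values, and the count of arrays limits the precision. Of 9335 probe sets 60 are AFFX controls, 6504 have 1 gene symbol, 328 several and 2443 none listed; updating against a RefSeq table changed 0 symbols. No genome build is given and no sequence was analysed here.

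A mean for each of the 21 groups, taken from the labels, was estimated by limma 3.58.1 (R 4.3.3; 21 residual degrees of freedom) to all 5656 genes without a filter. All p-values are two-sided and were adjusted by Benjamini and Hochberg's method over all genes and calls under 0.05. The code was tested on simulated data. Members, roles and partner lists were chosen with earlier results of these data known, and the role of ATG45 was assigned after the files were read. Any ATG gene could be named. Array values are given for ATG8, for up to 2 genes a role of smallest p in the parental joint test and for genes called between strains. Up to 3 partners a list are named by the smallest p in the parental mean heat response. For the genes the results turn on the whole course is printed, and for ATG27, ATG10 and some others the range.

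Replicate numbers come from the labels. Arrays with the same number deviated together from their group means. For all probe sets but controls the correlation exceeded 0.1 in 210 of 210 pairs of groups (0.13 at the lowest, with a median of 0.524). It did so in 209 of 210 over the tested genes (lowest 0.0669). The main fit does not use this pairing, and the replicate block enters only as an alternative. With or without the block, p-values of strain differences averaged over times treat the arrays of a strain as independent, and may be too small. The alternatives were median centring, a filter that drops the dimmest 25% of genes, centring to the mean of the hybridisation controls, a threshold of 0.01 on the adjusted p, trend and robust moderation, the mean of a gene's probe sets, the replicate block within and across strains, and leaving out each array or each replicate.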

Additional observations from a re-analysis of the deposited data

How the results depend on the processing

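No called value changed sign under any alternative, and trend and robust moderation moved no count beyond 1.5 times. Median centring left 1 lower parental gene and 0 in the double deletion. Centring on the hybridisation controls gave 13, 13 and 9 higher and 0, 0 and 0 lower genes in the parental, DPL1 deletion and double deletion strains, joint-test counts of 7, 6 and 5, medians of 1.274, 0.988 and 1.031, and 1 gene over all times in each comparison with the double deletion; the cause was not tested. Leaving out the dimmest 25% of genes removed 14 of the 36 members, so counts fell by construction: 17 and 16 higher in the parental and double deletion strains, 1 lower in the parental strain, medians of 1.423, 1.353 and 1.097, and 1 gene in each comparison with the double deletion. At an adjusted p under 0.01 the lower counts were 0, 0 and 0 and the 2 deletions differed in 1 gene. With the mean of a gene's probe sets the parental median was 0.876. With the replicate block within strains 2 and 3 genes were lower in the DPL1 and double deletions and 9 and 9 differed over all times; with the block across strains 2 were lower in the double deletion and 8 and 8 differed. The block raised the heat calls to 31, 28 and 32 (57.1%, 58.1% and 54.3% of all genes) and lost none, and it left 0 strain calls before heat and in the response. Leaving out 1 array at a time gave 20 to 26, 17 to 24 and 15 to 25 higher genes, 0 to 2, 0 to 1 and 0 to 2 lower genes, joint-test counts of 14 to 24, 13 to 20 and 12 to 21, and medians of 0.78 to 1.129, 0.727 to 1.023 and 0.732 to 0.899. The low ends of the higher and joint-test counts came without that strain's replicate 1 array before heat, and the double deletion's joint-test count was 13 without its replicate 2 array before heat. Over all times the counts were 3 to 6 against the parental strain and 2 to 5 between the deletions, both highest without the double deletion's replicate 1 array at 5 min. The first was 5 without the parental replicate 2 array before heat or at 15 min or the double deletion's replicate 1 array at 10 or 30 min, and the second was 4 without its replicate 1 array before heat or at 10, 20 or 30 min. The count was 0 to 0 for the DPL1 deletion against the parental strain; before heat and in the response they were 0 in each pair. Replicate 1 alone gave a DPL1 deletion median of 0.899, and replicate 2 alone a parental median of 0.866.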
